A study of Mus musculus with 12 samples.

Results

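The genes described here are 10 genes of Müller glia, the radial glial cells that span the retina, and each serves the upkeep of the tissue: Rlbp1, Glul, Slc1a3, Kcnj10, Aqp4, Car14, Dkk3, Sox9, Aldh1l1 and Hes1. They were chosen by symbol, with earlier results of these data known, so their counts set against all genes below are a description. All 10 stood in the deposited table of 56748 genes, and all 10 were among the 18334 genes that passed the filter on low counts and were tested. Poly-A RNA came from whole retinas of untreated mice in 4 groups: wild-type C57BL/6J mice of 4 weeks, C57BL/6J mice of 8 weeks, JR5558 mice of 4 weeks and JR5558 mice of 8 weeks. Each group held 3 retinas, each from a separate mouse. As background, JR5558 is an inbred strain with spontaneous subretinal neovascularization. Its mice carry rd8, a Crb1 mutation, together with a Jak3 mutation, so the effects of these alleles and of the rest of the genetic background cannot be told apart here. A whole retina mixes all its cell types, and in such a sample more glial cells and more RNA per glial cell cannot be told apart either.

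Müller glia take up the glutamate and the potassium that neurons release, move water and bicarbonate, return retinoid to the cones, and hold the transcription factors of retinal progenitors. In an injured retina they typically turn on Gfap and stress genes, and in many such states their homeostatic genes are described as falling. The comparisons below ask whether the 10 genes differed between the strains at each age, between the ages in each strain, and whether the strain difference itself changed with age. Values in CPM are counts scaled to a library total of 1e+06 with TMM factors, and a ± is the SD over 3 mice for CPM and the standard error for a log2 fold change. Log2 fold changes and p-values come from edgeR's quasi-likelihood test, adjusted over all 18334 genes by Benjamini-Hochberg, and a gene was called at an adjusted p under 0.05.

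The libraries held 18029611 to 23739886 counts, and the 10 genes took 0.402% to 0.590% of them. Crb1 ranged over 433 to 577 CPM in the C57BL/6J retinas and 144 to 190 CPM in those of JR5558. The groups also differed in sex: Ddx3y, a gene of the Y chromosome, stood at 65.0 to 78.6 CPM in the 3 JR5558 retinas of 4 weeks and at 0 in the other 9. Sex and strain therefore cannot be told apart at 4 weeks, nor sex and age in JR5558, and the contrast of the strain effect between the ages holds the same sex difference. The summed level of 20 pigment epithelium markers was 189 to 351 CPM in C57BL/6J of 4 weeks, 263 to 407 CPM in C57BL/6J of 8 weeks, 488 to 685 CPM in JR5558 of 4 weeks and 564 to 759 CPM in JR5558 of 8 weeks. Of these markers only Slc45a2 was at 0, in the 8-week C57BL/6J group. The pigment epithelium lies against the retina and is known to make Rlbp1 and Car14 as well, so a fit with the mean level of these markers as a covariate is given beside each call of the 10 genes. Of 59 calls of genes taken from the lists named further on, that fit ended 44, and its value is given for some of them only. The score did not overlap between the strains at either age, so that fit takes up part of the strain difference itself.

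Upstream sequence was available from RefSeq for 6 of the 10 genes, as the 250 bases before the annotated start on build GRCm38.p6. The 5 windows below are shown because they belong to the genes that passed the strain test at 1 age or both. Capitals mark a match to 1 of 3 motifs that were searched on both strands.
Rlbp1: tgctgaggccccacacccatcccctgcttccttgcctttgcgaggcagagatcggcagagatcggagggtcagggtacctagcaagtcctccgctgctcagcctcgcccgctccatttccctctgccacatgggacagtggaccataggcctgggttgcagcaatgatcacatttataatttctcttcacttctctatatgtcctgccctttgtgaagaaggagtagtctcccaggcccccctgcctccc
Kcnj10: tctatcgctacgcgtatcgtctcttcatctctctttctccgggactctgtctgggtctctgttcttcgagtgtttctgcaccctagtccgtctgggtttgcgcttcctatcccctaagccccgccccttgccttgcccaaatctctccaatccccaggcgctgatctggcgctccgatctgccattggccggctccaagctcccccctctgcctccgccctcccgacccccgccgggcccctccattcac
Slc1a3: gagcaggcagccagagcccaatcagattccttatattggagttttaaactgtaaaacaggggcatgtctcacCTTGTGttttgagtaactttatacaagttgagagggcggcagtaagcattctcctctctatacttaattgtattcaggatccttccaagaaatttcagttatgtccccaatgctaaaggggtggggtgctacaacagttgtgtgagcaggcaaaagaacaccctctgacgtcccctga
Car14: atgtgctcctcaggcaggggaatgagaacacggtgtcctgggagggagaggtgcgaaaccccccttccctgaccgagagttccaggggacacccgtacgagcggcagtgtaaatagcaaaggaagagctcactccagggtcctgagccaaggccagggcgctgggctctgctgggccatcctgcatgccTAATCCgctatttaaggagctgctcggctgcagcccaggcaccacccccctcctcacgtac
Aldh1l1: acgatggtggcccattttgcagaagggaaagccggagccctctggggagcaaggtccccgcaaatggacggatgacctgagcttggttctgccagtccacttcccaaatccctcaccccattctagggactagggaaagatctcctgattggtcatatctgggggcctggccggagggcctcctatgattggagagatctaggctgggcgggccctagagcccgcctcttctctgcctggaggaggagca
The windows are, in that order, chr7:79387028-79387277 on the minus strand, chr1:172340960-172341209 on the plus strand, chr15:8710808-8711057 on the minus strand, chr3:95904686-95904935 on the minus strand and chr6:90550543-90550792 on the plus strand. The capitals in Slc1a3 are a match to the N-box of HES factors, read on the reverse strand and starting 178 bases before the start. The capitals in Car14 are a match to the site of the OTX and CRX factors, 61 bases before the start. The bases just after the start were sought in the GENCODE M21 transcripts of each gene. They were found for Rlbp1, Kcnj10, Car14 and Aldh1l1, and in 0 transcripts for Slc1a3 and for Glul, whose window is not shown. The distance in Slc1a3 thus rests on the RefSeq start alone.

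The letters searched for the N-box, CACNAG, occurred in 36.7% of 32851 windows of the same length, and among the 6 windows in Slc1a3 and Glul. The OTX and CRX letters, TAATCC, occurred in 6.25% of all windows and in Car14 alone of the 6. The core letters of SOX factors, AACAAT, occurred in 9.42% of all windows and in 0 of the 6. The windows of Rlbp1, Kcnj10, Car14, Aldh1l1 and Glul held 57.2%, 62.0%, 62.0%, 59.6% and 64.8% G and C, above the median of 52.4% over all windows. The window of Slc1a3, at 44.8%, lay below that median.

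The 10 genes differed widely in abundance. On the deposited FPKM scale, which divides by gene length and so allows genes to be compared, Glul was the most abundant at a mean level of 714 ± 82.8 (SD, n = 12 libraries). Dkk3 followed at 304 ± 32.99 and Rlbp1 at 210 ± 52.3, and the ranges of these last genes overlapped over the 12 libraries. A middle group held Car14 at 27.0 ± 5.597, Slc1a3 at 26.8 ± 3.07, Aqp4 at 21.5 ± 2.24, Kcnj10 at 14.1 ± 2.36 and Hes1 at 10.3 ± 2.47. The transcription factor Sox9, at 5.16 ± 0.363, and Aldh1l1, at 3.73 ± 0.704, were lowest. Within each group the order was the same but for 1 exchange: Slc1a3 stood above Car14 in both C57BL/6J groups and in JR5558 of 4 weeks, and Car14 stood above Slc1a3 in JR5558 of 8 weeks. These neighbours overlapped in the first 3 groups, and Car14 also overlapped Aqp4 in both 4-week groups. No other neighbours overlapped within a group.

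**Figure D1:**
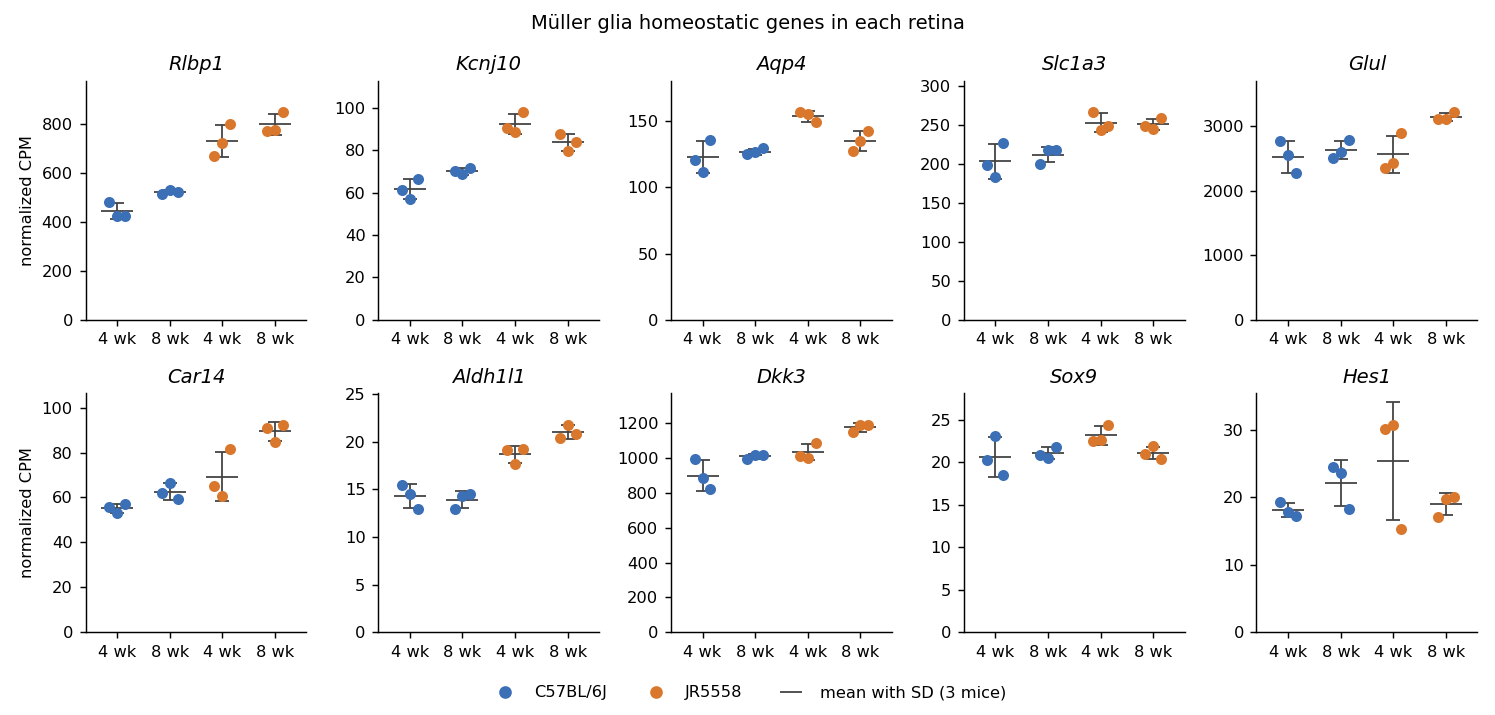
Normalized CPM (vertical axis, from 0) of each of the 10 genes in each retina, by strain and age. Points are single mice and bars give the mean with SD of 3 mice. Rlbp1 sits between 670 and 848 CPM in the 6 JR5558 retinas and at or below 532 CPM in the 6 C57BL/6J retinas, and Hes1 has a wide bar in JR5558 of 4 weeks, where 1 mouse lies at 15.3 CPM.

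At 4 weeks, 5 of the 10 genes were higher in JR5558 and 0 were lower. The 5 were Rlbp1, Kcnj10, Aqp4, Slc1a3 and Aldh1l1, that is the retinoid carrier, the potassium and water channels, the glutamate transporter and the folate enzyme. Among all tested genes 6.16% were called in either direction and 3.27% as higher. The groups did not overlap for 7 of the 10 genes, all with JR5558 above C57BL/6J, against 19.6% of all genes in either direction. All 10 log2 fold changes were positive, with a median of 0.33 against -0.0012 over all tested genes. At 8 weeks, 3 of the 10 were higher and 0 lower: Rlbp1, Aldh1l1 and Car14, the last a membrane carbonic anhydrase. The background at that age was 5.18% called in either direction, 2.54% called higher and 30.2% without overlap. Again 7 of the 10 genes did not overlap, and the median log2 fold change was 0.25. Rlbp1 and Aldh1l1 were called at both ages, Aldh1l1 at 4 weeks only narrowly, as given with its values. The counts moved with single libraries: the 4-week count was 2 of the 10 without C57BL/6J 4-week replicate 2 or without JR5558 4-week replicate 1, and the 8-week count was 5 without C57BL/6J 4-week replicate 1 and 7 without C57BL/6J 4-week replicate 3. With the pigment epithelium covariate the count was 1 at each age, and the gene was Rlbp1.

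The summed level of the 10 genes was 4048 to 4735 CPM in C57BL/6J of 4 weeks and 4691 to 5420 CPM in JR5558 of that age. At 8 weeks the C57BL/6J retinas held 4525 to 4859 CPM and those of JR5558 held 5641 to 5893 CPM. Glul alone made up most of each sum, but it did not carry the strain difference at 4 weeks. From C57BL/6J to JR5558 at that age the mean sum went from 4367 to 4964 CPM, and mean Glul from 2528 to 2563 CPM. Mean Rlbp1 went from 444 to 731 CPM and mean Dkk3 from 898 to 1034 CPM. At 8 weeks the mean sum went from 4692 to 5743 CPM, and mean Glul from 2631 to 3148 CPM.

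**Figure D2:**
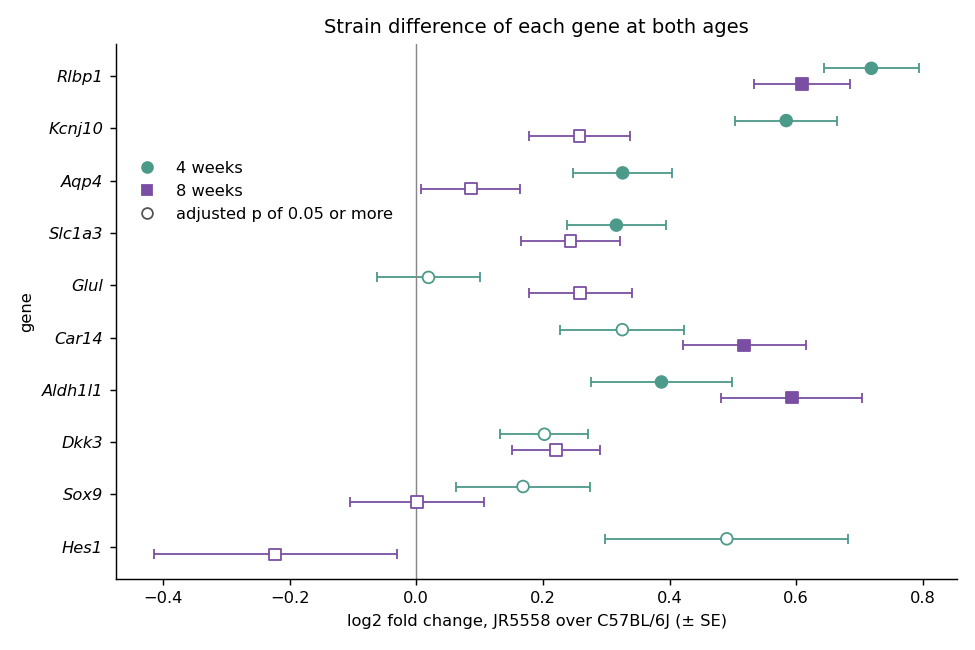
Log2 fold change of JR5558 over C57BL/6J (horizontal axis, ± standard error) for each gene at 4 weeks (circles) and 8 weeks (squares). Filled symbols passed an adjusted p of 0.05. Rlbp1 lies farthest right at both ages (0.72 and 0.61), and Glul and Hes1 lie apart between the ages.

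Rlbp1 encodes the carrier of 11-cis retinaldehyde in Müller glia and pigment epithelium (chromosome 7, 79024618 to 79036796, minus strand, in the deposited positions). Its level was 482, 426 and 425 CPM in the C57BL/6J retinas of 4 weeks and 670, 724 and 800 CPM in those of JR5558. The 8-week levels were 515, 532 and 524 CPM in C57BL/6J and 771, 777 and 848 CPM in JR5558. The strains did not overlap at either age, and even the lowest JR5558 retina of 4 weeks lay above the highest C57BL/6J retina of 8 weeks. Rlbp1 rose by a log2 fold change of 0.72 ± 0.08 at 4 weeks (adjusted p = 3.642e-06), the largest of the 10 genes and rank 89 by p among all tested genes. At 8 weeks the rise was 0.61 ± 0.08 (adjusted p = 2.863e-05). Both calls remained in each of the 12 fits that left out 1 library, with an adjusted p of at most 5.414e-05 at 4 weeks and 0.0004372 at 8 weeks. With the pigment epithelium score as covariate the values were 0.66 ± 0.14 (adjusted p = 0.01604) and 0.56 ± 0.12 (adjusted p = 0.02188), the only members' calls that this fit left.

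Of 17 other genes of retinoid handling, 8 rose and 0 fell at 4 weeks, and 3 rose and 1 fell at 8 weeks, with medians of 0.10 and 0.37. Dhrs3, a reductase of all-trans retinal, rose by 0.67 ± 0.08 (adjusted p = 2.29e-05) and 0.46 ± 0.08 (adjusted p = 0.001457). Stra6, a membrane receptor for retinol uptake, rose by 1.05 ± 0.21 at 4 weeks (adjusted p = 0.003884). Rpe65, Rgr, Rdh5 and Lrat, which also rose at 4 weeks, are markers of the pigment epithelium. With the pigment epithelium score as covariate Stra6 stood at -0.03 ± 0.23 (adjusted p = 0.9688), while Dhrs3 remained called. Rdh10, a retinol dehydrogenase that is also counted below among other genes of Müller glia, rose at both ages (0.38 ± 0.10 and 0.43 ± 0.10, adjusted p = 0.02837 and 0.01643). The value of Rdh10 in the fit with the pigment epithelium covariate was not read out, so a part of that tissue in its rise was not examined. Rdh12, of photoreceptors, fell by 0.26 on the log2 scale at 8 weeks (adjusted p = 0.02503).

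Kcnj10 encodes Kir4.1, the inward rectifier through which Müller glia siphon potassium (chromosome 1, 172168777 to 172201652, plus strand). It was measured at 61.4, 56.9 and 66.3 CPM in C57BL/6J of 4 weeks and at 90.6, 88.5 and 97.9 CPM in JR5558. The corresponding retinas of 8 weeks held 69.9, 68.5 and 71.6 CPM and 87.8, 79.7 and 83.7 CPM. The strains did not overlap at either age, with a wider gap at 4 weeks. Kcnj10 rose by 0.58 ± 0.08 at 4 weeks (adjusted p = 8.962e-05), in all 12 leave-one-out fits (adjusted p up to 0.001317). At 8 weeks the log2 fold change was 0.26 ± 0.08 and did not pass (adjusted p = 0.07339). The difference between the ages was -0.33 ± 0.11 with an unadjusted p = 0.009732, and it did not pass over all genes (edgeR, adjusted p = 0.5095). The 4-week value with the pigment epithelium covariate was 0.43 ± 0.14 (adjusted p = 0.173).

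Aqp4 encodes the water channel of the glial endfeet, where it sits beside Kir4.1 (chromosome 18, 15522553 to 15544039, minus strand). At 4 weeks it stood at 120, 112 and 136 CPM in C57BL/6J and at 157, 156 and 149 CPM in JR5558, without overlap. At 8 weeks it stood at 125, 126 and 130 CPM in C57BL/6J and at 127, 135 and 143 CPM in JR5558, and the groups overlapped. Aqp4 rose by 0.33 ± 0.08 at 4 weeks (adjusted p = 0.01539), and the call was lost without C57BL/6J 4-week replicate 1 (adjusted p = 0.06162) or 2 (0.1093) or JR5558 4-week replicate 1 (0.06827) or 2 (0.05377). It was also lost with the pigment epithelium covariate, at 0.13 ± 0.13 (adjusted p = 0.7007). At 8 weeks the log2 fold change was 0.09 ± 0.08 (adjusted p = 0.6419). In JR5558 all 3 retinas of 8 weeks lay below all 3 of 4 weeks, at a log2 difference of -0.19 ± 0.08 (unadjusted p = 0.02536, adjusted p = 0.2201).

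Of 13 tested genes for other potassium and water channels and the proteins that anchor them, 1 rose and 1 fell at each age, with medians of 0.10 and 0.02. Sntb1, a syntrophin of the dystrophin complex, stood at 0.41 ± 0.12 at 4 weeks (adjusted p = 0.04151) and 0.41 ± 0.12 at 8 weeks (adjusted p = 0.04413). Dmd, dystrophin itself, fell by 0.35 on the log2 scale at 4 weeks (adjusted p = 0.04003). These calls were weak: the 4-week calls of Sntb1 and Dmd were lost in 9 and 10 of the 12 leave-one-out fits (adjusted p up to 0.1964 and 0.1866), and the 8-week call of Sntb1 in 5 (up to 0.1763). Aqp1, a water channel of photoreceptors and amacrine cells, fell by 0.33 on the log2 scale at 8 weeks (adjusted p = 0.003829), in all 12 leave-one-out fits. With the pigment epithelium covariate none of these calls remained. Sntb1 stood at 0.01 ± 0.18 and 0.08 ± 0.16 (adjusted p = 0.993 and 0.8863). Dmd stood at -0.41 ± 0.17 (adjusted p = 0.311) and Aqp1 at -0.40 ± 0.10 (adjusted p = 0.06958).

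Slc1a3 encodes GLAST, the main glutamate transporter of Müller glia (chromosome 15, 8663608 to 8740248, minus strand). It was measured at 199, 184 and 227 CPM in C57BL/6J of 4 weeks and 267, 244 and 249 CPM in JR5558. The mice of 8 weeks held 201, 218 and 218 CPM in C57BL/6J and 249, 246 and 259 CPM in JR5558. The JR5558 retinas lay above all C57BL/6J retinas at both ages. The log2 fold changes were 0.32 ± 0.08 at 4 weeks, which passed (adjusted p = 0.01902), and 0.24 ± 0.08 at 8 weeks, which did not (adjusted p = 0.08721). The 4-week call was lost without C57BL/6J 4-week replicate 1 (adjusted p = 0.07497) or 2 (0.1328) or JR5558 4-week replicate 1 (0.1061), and with the pigment epithelium covariate (0.10 ± 0.12, adjusted p = 0.787).

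Glul encodes glutamine synthetase, which turns the glutamate taken up into glutamine (chromosome 1, 153775690 to 153785469, plus strand). At 4 weeks the strains overlapped, with 2767, 2549 and 2269 CPM in C57BL/6J and 2357, 2434 and 2897 CPM in JR5558, and the log2 fold change was 0.02 ± 0.08 (adjusted p = 0.9298). At 8 weeks they did not overlap, with 2502, 2606 and 2784 CPM in C57BL/6J and 3108, 3118 and 3217 CPM in JR5558. That log2 fold change was 0.26 ± 0.08 and did not pass (adjusted p = 0.07804). Without C57BL/6J 4-week replicate 1 or 3, or JR5558 4-week replicate 3, it passed (adjusted p = 0.04631, 0.01821 and 0.03414) although none of these libraries is a retina of 8 weeks. The strain effect differed between the ages by 0.24 ± 0.11 (unadjusted p = 0.05138, adjusted p = 0.6954).

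Of 17 further genes of glutamate and glutamine handling, 1 rose and 1 fell at 4 weeks, and 0 rose and 1 fell at 8 weeks. Slc38a3, the transporter by which glutamine leaves and enters glial cells, stood at 545, 585 and 506 CPM in C57BL/6J of 4 weeks and at 609, 656 and 642 CPM in JR5558. In the older groups it stood at 780, 729 and 715 CPM in C57BL/6J and at 595, 556 and 549 CPM in JR5558. The order of the strains was thus opposite at the 2 ages. Slc38a3 fell by 0.39 on the log2 scale at 8 weeks (adjusted p = 0.001533), with a value of 0.22 ± 0.07 at 4 weeks (adjusted p = 0.07042), and it rose with age in C57BL/6J by 0.44 ± 0.07 (adjusted p = 0.00504). The neuronal glutamine transporter Slc38a2 fell by 0.35 on the log2 scale at 4 weeks (adjusted p = 0.03297), and the neuronal glutamate transporter Slc1a1 rose by 0.41 ± 0.11 (adjusted p = 0.03625). Those 2 calls were lost in 6 and 9 of the 12 leave-one-out fits (adjusted p up to 0.1571 and 0.1881).

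Car14 encodes carbonic anhydrase XIV, a membrane enzyme that faces the extracellular space (chromosome 3, 95805080 to 95812003, minus strand). Its level was 55.6, 53.0 and 56.96 CPM in C57BL/6J of 4 weeks and 65.3, 60.7 and 81.5 CPM in JR5558. In the older mice it was 61.8, 66.5 and 59.1 CPM in C57BL/6J and 91.1, 84.8 and 92.5 CPM in JR5558. The strains did not overlap within either age, and JR5558 replicate 3 stood apart from its group at 4 weeks. The log2 fold change at 4 weeks was 0.33 ± 0.10 and missed the threshold (adjusted p = 0.05763), and without JR5558 4-week replicate 2 it was 0.41 ± 0.10 (adjusted p = 0.02387). Car14 rose by 0.52 ± 0.10 at 8 weeks (adjusted p = 0.002514), in all 12 leave-one-out fits (adjusted p up to 0.02113), and by 0.35 ± 0.15 with the pigment epithelium covariate, where it did not pass (adjusted p = 0.3424). Aph1a, a subunit of gamma-secretase, overlaps Car14 on the opposite strand with up to 1100 counts a library, and the sources used here do not say whether the libraries kept strand, so some reads may be shared. The log2 fold change of Aph1a was 0.14 ± 0.11 at 4 weeks and 0.07 ± 0.11 at 8 weeks (adjusted p = 0.5444 and 0.798).

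Of 13 other carbonic anhydrases and bicarbonate transporters, 2 rose and 0 fell at 4 weeks, and 0 rose and 1 fell at 8 weeks. Car2, the cytosolic enzyme of Müller glia, rose by 0.43 ± 0.07 at 4 weeks (adjusted p = 0.0003155), from 478 to 524 CPM in C57BL/6J to 657 to 702 CPM in JR5558. Car12, a membrane isoform, rose by 1.98 ± 0.40 (adjusted p = 0.004269), but with the pigment epithelium covariate it stood at -0.21 ± 0.40 (adjusted p = 0.8621), and Car2 at 0.29 ± 0.11 (adjusted p = 0.2628). The bicarbonate cotransporter Slc4a7 fell by 0.40 on the log2 scale at 8 weeks (adjusted p = 0.0151), a call lost in 4 of the 12 leave-one-out fits (up to 0.1088).

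Aldh1l1 encodes a folate enzyme, 10-formyltetrahydrofolate dehydrogenase, that is widely used as an astroglial marker (chromosome 6, 90463409 to 90577185, plus strand). It stood at 15.4, 14.5 and 13.0 CPM in C57BL/6J of 4 weeks and 19.1, 17.7 and 19.2 CPM in JR5558. Among the older mice it stood at 12.9, 14.3 and 14.5 CPM in C57BL/6J and 20.4, 21.8 and 20.8 CPM in JR5558. All 6 JR5558 retinas lay above all 6 C57BL/6J retinas. Aldh1l1 rose by 0.39 ± 0.11 at 4 weeks (adjusted p = 0.04479), but 10 of the 12 leave-one-out fits lost this call, all but those without C57BL/6J 4-week or 8-week replicate 1 (adjusted p 0.05978 to 0.1269 in the 10). It rose by 0.59 ± 0.11 at 8 weeks (adjusted p = 0.002409), a call that all 12 leave-one-out fits kept (up to 0.01881). With the pigment epithelium covariate the values were larger with wider errors and did not pass, 0.49 ± 0.21 (adjusted p = 0.311) and 0.68 ± 0.18 (adjusted p = 0.08415).

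Of 15 other tested folate one-carbon enzymes, 1 rose at 4 weeks and 3 rose at 8 weeks, and 0 fell. Mtrr, which reactivates methionine synthase, rose by 0.55 ± 0.12 at 8 weeks (adjusted p = 0.006381), and Mthfd1 by 0.39 ± 0.11 (adjusted p = 0.04495). The 8-week call of Mthfd1 was lost in 5 of the 12 leave-one-out fits (adjusted p up to 0.2033).

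Dkk3 encodes a secreted glycoprotein of the Dickkopf family (chromosome 7, 111715224 to 111758264, minus strand). Its level was 994, 882 and 819 CPM in C57BL/6J of 4 weeks and 1012, 1002 and 1087 CPM in JR5558. In the mice of 8 weeks it was 992, 1017 and 1018 CPM in C57BL/6J and 1148, 1192 and 1188 CPM in JR5558. The strains did not overlap at either age, though at 4 weeks the nearest values were close. The log2 fold changes, 0.20 ± 0.07 and 0.22 ± 0.07, did not pass (adjusted p = 0.1008 and 0.07843). Without C57BL/6J 4-week replicate 1 both passed (adjusted p = 0.01965 and 0.03552), as did the 8-week value without C57BL/6J 4-week replicate 3 (0.01488). Of 17 other tested Wnt inhibitors and receptors, 2 rose and 0 fell at each age: Kremen1, a Dickkopf receptor (0.40 ± 0.09 and 0.46 ± 0.09, adjusted p = 0.01205 and 0.004821), and Sfrp5, a secreted Wnt binder (1.49 ± 0.35 and 1.48 ± 0.36, adjusted p = 0.01316 and 0.01643). The 4-week calls of both were lost without JR5558 4-week replicate 1 (adjusted p = 0.08511 for Kremen1 and 0.05539 for Sfrp5), and Sfrp5 lost 1 further fit at 4 weeks and 2 at 8 weeks (up to 0.1552).

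Sox9, the transcription factor that marks Müller glia nuclei (chromosome 11, 112673050 to 112678586, plus strand), was called at neither age. It stood at 20.3, 23.1 and 18.5 CPM in C57BL/6J of 4 weeks, 22.5, 22.6 and 24.5 CPM in JR5558 of 4 weeks, 20.9, 20.5 and 21.8 CPM in C57BL/6J of 8 weeks and 21.04, 21.9 and 20.4 CPM in JR5558 of 8 weeks. The groups overlapped at both ages. The log2 fold changes were 0.17 ± 0.11 at 4 weeks (adjusted p = 0.4206) and 0.00 ± 0.11 at 8 weeks (adjusted p = 0.9974). A p of this size does not show equal levels, but the 8-week value lay within 1 standard error of 0.

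Hes1, a target of Notch that represses neuronal genes (chromosome 16, 29883202 to 29886614, plus strand), had the widest spread within a group. In JR5558 of 4 weeks it stood at 30.1, 30.8 and 15.3 CPM, a coefficient of variation of 34.6%, against 19.3, 17.8 and 17.2 CPM in C57BL/6J. At 8 weeks it stood at 24.5, 23.6 and 18.2 CPM in C57BL/6J and at 17.1, 19.8 and 20.1 CPM in JR5558. JR5558 4-week replicate 3 was the lowest of all 12 libraries, and the other 2 mice of its group were the highest. With all libraries and the filter on low counts, 0 of the Hes1 contrasts passed (edgeR): 0.49 ± 0.19 at 4 weeks (adjusted p = 0.1566), -0.22 ± 0.19 at 8 weeks (adjusted p = 0.6169), and -0.71 ± 0.27 for the difference between the ages (unadjusted p = 0.01685, adjusted p = 0.5551). Without JR5558 4-week replicate 3, the 4-week value was 0.75 ± 0.13 (adjusted p = 0.001088), the change with age in JR5558 was -0.68 ± 0.13 (adjusted p = 0.008178) and the difference was -0.97 ± 0.18 (adjusted p = 0.02202). Whether these 3 Hes1 contrasts passed thus changed with 1 retina, and the 4-week value also passed with all 12 libraries when no filter on low counts was set (0.48 ± 0.13, adjusted p = 0.008691).

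Of 21 other genes of Notch signalling, 1 rose and 1 fell at 4 weeks and 1 rose at 8 weeks. Mfng, a fringe enzyme that modifies Notch, rose by 0.97 ± 0.15 at 4 weeks (adjusted p = 0.000366), from 8.14 to 10.6 CPM in C57BL/6J to 16.9 to 20.2 CPM in JR5558. Jag1, a Notch ligand, fell by 0.39 on the log2 scale (adjusted p = 0.01449), a call lost without JR5558 4-week replicate 1 (adjusted p = 0.07001). Lfng, another fringe enzyme, rose by 0.78 ± 0.20 at 8 weeks (adjusted p = 0.02409), a call lost in 4 of the 12 leave-one-out fits (up to 0.1319).

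**Figure D3:**
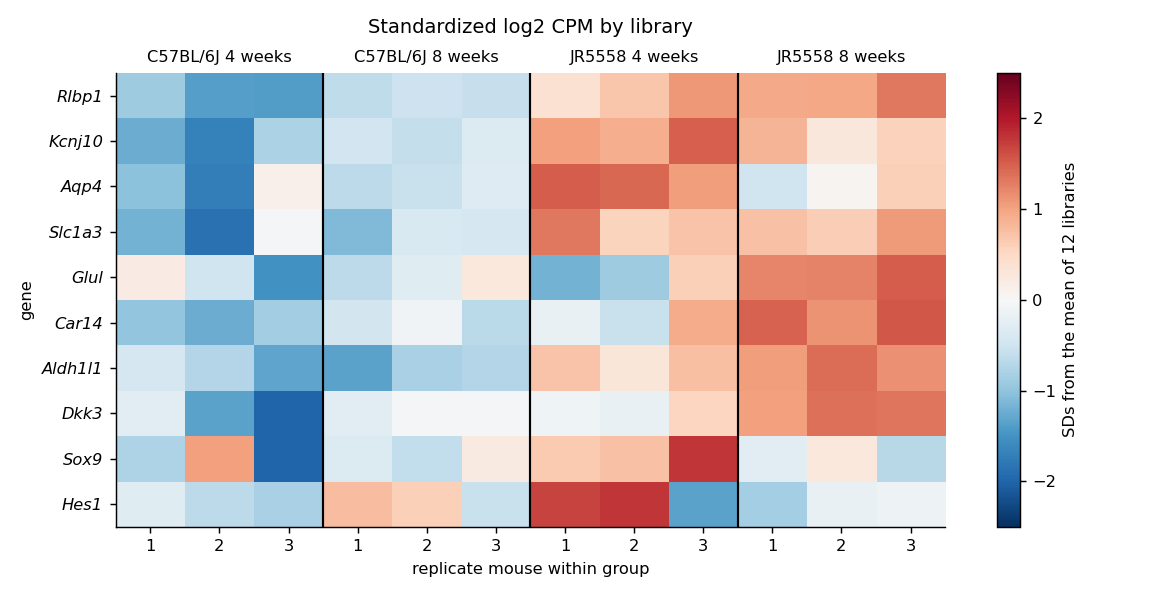
Each gene's log2 CPM in each of the 12 libraries, in SDs from that gene's mean over the 12 (color scale); columns are replicate mice within the 4 groups. Rlbp1, Kcnj10 and Aldh1l1 are red in the 6 JR5558 columns and blue in the 6 C57BL/6J columns, and Hes1 in JR5558 4-week replicate 3 is blue beside red neighbours.

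With age, 0 of the 10 genes passed in either strain and 0 passed for the change of the strain effect with age by edgeR, with all 12 libraries and the filter on low counts. Without that filter Glul and Car14 passed with age in JR5558. The background was 0.431% of genes called with age in C57BL/6J, 1.51% in JR5558 and 0.0927% for the difference. At an unadjusted p under 0.05 there were 3 of the 10 in C57BL/6J, namely Rlbp1, Kcnj10 and Dkk3, all with positive values of 0.17 to 0.24. In JR5558 there were 5: Glul, Car14 and Dkk3 with positive values (0.30 ± 0.08, 0.37 ± 0.10 and 0.19 ± 0.07) and Aqp4 and Hes1 with negative values (-0.19 ± 0.08 and -0.42 ± 0.19). For the difference there were 3, Kcnj10, Hes1 and Aqp4, all negative. The background shares above are for adjusted p and cannot be set against these unadjusted counts. Many other genes also lay under the unadjusted threshold. By p, Kcnj10 ranked 2033 of 18334 tested genes in C57BL/6J, Hes1 2708 in JR5558 and Aqp4 1187 for the difference. DESeq2 called 0 of the 10 with age in C57BL/6J, 2 in JR5558 (Glul and Car14) and 0 for the difference. The values of Glul and Car14 in JR5558 (adjusted p = 0.07387 and 0.06088) also passed without JR5558 4-week replicate 3 (0.01216 and 0.005328). Within JR5558, all 3 older values of Glul, Car14, Dkk3 and Aldh1l1 lay above the younger ones. All 3 older values of Kcnj10, Aqp4 and Sox9 lay below, and the other genes overlapped. Among all tested genes, 24.3% did not overlap in either direction between these groups. Only the JR5558 retinas of 4 weeks held Ddx3y, so sex and age cannot be told apart in these values. The age comparisons share the JR5558 or C57BL/6J libraries with the strain comparisons, so they are not independent of them.

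The number of genes called at 8 weeks changed with the libraries that were fitted, and the cause of that change was not tested. Glul, Dkk3, Slc1a3 and Kcnj10 had JR5558 above C57BL/6J without overlap at that age and missed the threshold in the fit of all 12 libraries. A fit of the 6 retinas of 8 weeks alone called 7 of the 10 genes: the 3 above and Glul (0.26 ± 0.05, adjusted p = 0.0009585), Dkk3 (0.23 ± 0.04, adjusted p = 0.001954), Slc1a3 (0.25 ± 0.05, adjusted p = 0.005766) and Kcnj10 (0.26 ± 0.06, adjusted p = 0.009914). The fit of the 6 retinas of 4 weeks alone called 2, Rlbp1 and Kcnj10. The log2 fold changes of these 4 genes moved by less than their standard errors between the fits, while their standard errors, 0.07 to 0.08 with all 12 libraries, were 0.04 to 0.06 with the 8-week retinas alone. The authors' deposited table calls the same 2 genes at 4 weeks and the same 7 at 8 weeks at an adjusted p under 0.05. With age, the authors' deposited table calls 3 of the 10 in JR5558 and none in C57BL/6J. The 3 are Glul, Car14 and Dkk3.

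**Figure D4:**
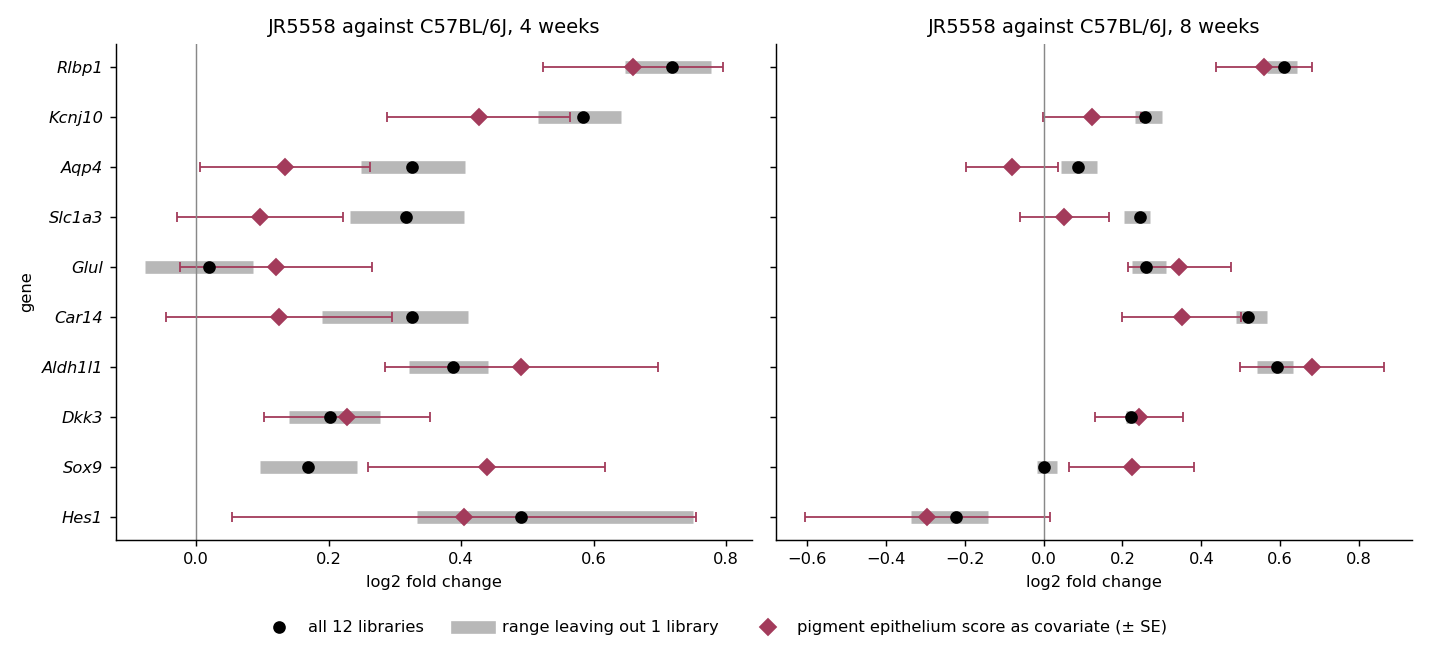
Log2 fold change of JR5558 over C57BL/6J (horizontal axes) at 4 weeks (left) and 8 weeks (right). Black points use all 12 libraries, grey bars span the fits that leave out 1 library each, and diamonds with bars give the fit with the pigment epithelium score as covariate and its standard error. Rlbp1 stays at 0.56 or more throughout, while Slc1a3 and Aqp4 at 4 weeks move to 0.10 and 0.13 with the covariate.

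Among the 10 genes, the mice of a group did not vary as 1 block. In JR5558 of 4 weeks, replicate 3 was the highest mouse for 7 of the 10 genes and the lowest for Aqp4 and Hes1. In C57BL/6J of 4 weeks, replicate 3 was the highest for Slc1a3, Kcnj10, Aqp4 and Car14 and the lowest for the other 6. As a description over 12 libraries that fall into groups by strain and age, Rlbp1 followed the mean of the other members most closely (Pearson r = 0.984), and Sox9 and Hes1 least (0.316 and 0.038). After each group's mean was taken off, Rlbp1 still did (0.736), Slc1a3 stood near 0 (-0.038) and Hes1 was opposite (-0.675).

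Other genes of Müller glia that passed the test rose as well. Of 23 other genes of Müller glia, 5 were called higher and 0 lower at 4 weeks. At 8 weeks 8 were called higher and 0 lower, and the medians were 0.11 at both ages. The list did not move as a whole: 20 of the 23 values were positive at 4 weeks and 16 at 8 weeks, where the lowest was -0.37. At 8 weeks 9 genes lay above C57BL/6J without overlap and 3 below, against 30.2% of all genes in either direction. Crym, a thyroid hormone binding protein, rose by 1.07 ± 0.11 and 0.87 ± 0.11 (adjusted p = 1.744e-06 and 2.51e-05), from 54.8 to 72.5 CPM in C57BL/6J to 116 to 146 CPM in JR5558. Clu, the chaperone clusterin, rose by 0.40 ± 0.08 and 0.36 ± 0.08 (adjusted p = 0.003075 and 0.007125), and Gpr37, a receptor of glial cells, rose by 0.38 ± 0.07 at 4 weeks (adjusted p = 0.002893). Vim and Rdh10 also rose at both ages. Sox2, Prdx6, Dbi and Cd9 rose at 8 weeks. Of these, Crym also passed with the pigment epithelium covariate, while Clu (0.21 ± 0.13, adjusted p = 0.5178) and Gpr37 (0.21 ± 0.12, adjusted p = 0.4822) did not at 4 weeks.

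Genes of glial reactivity were also higher in JR5558. Of 16 genes of that list, 11 rose and 0 fell at 4 weeks, and 10 rose and 0 fell at 8 weeks, with medians of 1.02 and 0.75. Edn2, an endothelin of stressed photoreceptors, rose from 3.81 to 11.0 CPM in C57BL/6J to 21.2 to 68.1 CPM in JR5558 (2.94 ± 0.31 and 2.80 ± 0.29). Fgf2, a survival factor, rose by 1.84 ± 0.21 and 1.90 ± 0.21, and A2m, a protease inhibitor, by 2.18 ± 0.26 and 2.05 ± 0.25. Gfap, the filament of reactive glia and astrocytes, ranged over 29.4 to 35.4 CPM in the C57BL/6J retinas and 42.3 to 75.6 CPM in those of JR5558, and rose by 0.86 ± 0.15 (adjusted p = 0.00138) and 0.56 ± 0.15 (adjusted p = 0.04033). The 8-week call of Gfap was lost in 6 of the 12 leave-one-out fits (adjusted p up to 0.216). With the pigment epithelium covariate Gfap stood at 0.51 ± 0.27 and 0.28 ± 0.23 and did not pass (adjusted p = 0.4369 and 0.669). A2m, at 1.32 ± 0.44 and 1.34 ± 0.37, did not pass either (adjusted p = 0.1857 and 0.1027), nor did Fgf2 at 4 weeks (1.48 ± 0.38, adjusted p = 0.07106). In that fit Edn2 remained called at both ages and Fgf2 at 8 weeks. Gfap was the only called gene of 8 tested astrocyte markers at either age, and the astrocyte marker Gjb6 was at 0 in at least 1 library of each group.

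Markers of other cell types gave the following counts beside the members. Of the 20 pigment epithelium markers, 13 rose at 4 weeks and 4 at 8 weeks by edgeR, with medians of 1.24 and 1.07. This fall in calls was not seen by other counts. DESeq2 called 8 at each age, and 15 and 16 had an unadjusted p under 0.05 (edgeR). JR5558 lay above C57BL/6J without overlap for 12 markers at 4 weeks and 16 at 8 weeks. The 10 rod markers held 0 calls at 4 weeks by edgeR and by DESeq2, with 1 at an unadjusted p under 0.05, and 0 rose and 2 fell at 8 weeks: Gnat1 by 0.34 and Pde6b by 0.28 on the log2 scale (adjusted p = 0.002164 and 0.01411), the latter lost in 5 of 12 leave-one-out fits (up to 0.1228). The summed rod level was 70405 to 73557 CPM in C57BL/6J of 8 weeks and 62852 to 64884 CPM in JR5558 of that age, against 61465 to 66549 and 59400 to 66816 CPM at 4 weeks. Of 10 microglia markers 4 rose at 4 weeks and 5 at 8 weeks, and their summed level ran over 50.5 to 62.2 CPM in the C57BL/6J retinas and 68.5 to 107 CPM in those of JR5558. The 13 amacrine and ganglion cell markers held 0 calls at either age (edgeR), with medians of -0.02 and 0.02, and at an unadjusted p under 0.05 they held 0 and 1 (DESeq2 called 0 at both ages). Of 10 bipolar markers, Vsx1 rose at 4 weeks and Grm6 fell at 8 weeks. Of 10 endothelial markers, Kdr rose at both ages and Cldn5 fell at 8 weeks. The 7 tested lens genes held 0 calls by edgeR and by DESeq2 at either age, with 1 and 0 at an unadjusted p under 0.05, and 5 of 8 were at 0 in a JR5558 library of 4 weeks. Their medians were -1.79 and 0.17, and their summed level was uneven between libraries. It was 130 CPM in C57BL/6J 4-week replicate 3, against 10.7 and 7.70 CPM in replicates 1 and 2. The ranges were 6.72 to 45.6 CPM in C57BL/6J of 8 weeks, 1.57 to 31.5 CPM in JR5558 of 4 weeks and 8.72 to 60.6 CPM in JR5558 of 8 weeks. The part of these cell types in the members' values was not tested beyond the pigment epithelium covariate.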

How the data were processed

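Poly-A RNA of 12 whole retinas, 3 mice in each of 4 groups, was sequenced as paired-end reads. Per the submitters' processing notes, fastp, HISAT2 2.0.5 and featureCounts 1.5.0-p3 were used with mm10. The deposited values are raw counts per gene, FPKM by the authors and the authors' own log2 fold changes and p-values, whose test is not given in the sources used here. The deposited gene lengths served for the other length scaling. Of the 10 genes, 10 were found by identifier in GENCODE M21 and 0 at identical positions. The build of the deposited positions is therefore open, and they cannot be set against the RefSeq windows.

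Counts were analysed in R 4.3.3 with edgeR 4.0.16: filterByExpr by group (minimum count 10, minimum total 15), TMM, 1 mean per group over all 12 libraries, 5 contrasts, quasi-likelihood test (2-sided), Benjamini-Hochberg over 18334 genes. The scripts were tested on simulated data. The alternatives were RLE, no filter, at least 1 CPM in 3 libraries, DESeq2 1.42.0, only the groups compared, the replicate block, each library left out, a pigment epithelium covariate and no genes of chromosomes X and Y. For the level order, it was TPM. Low counts limit precision most for Aldh1l1, with at least 259 counts a library.

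The 10 genes and the lists were chosen with earlier results of these data known. Of each list, up to 3 genes past the threshold at either age are named, in the order of their smaller adjusted p. A few genes that the rule took are not reported here. Other named genes were picked with their values in view. The genes most like the members were taken among those with at least 5 CPM.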

Additional observations from a re-analysis of the deposited data

Results flagged for a closer look

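For 2 genes of the lists, the strain difference was not the same at the 2 ages (edgeR, contrast of the 8-week minus the 4-week log2 fold change). Only the JR5558 retinas of 4 weeks held Ddx3y, so for both genes this contrast holds a sex difference that cannot be told apart from age. Slc38a3, a glutamine transporter of glia, had a difference of -0.61 ± 0.10 (adjusted p = 0.0106), and the call was lost in 5 of the 12 fits that leave out 1 library (adjusted p up to 0.06538): those without C57BL/6J 8-week replicate 1 or 2, JR5558 4-week replicate 2, or JR5558 8-week replicate 2 or 3. All 3 JR5558 retinas lay above the C57BL/6J retinas at 4 weeks and all 3 below them at 8 weeks.

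Vsx1, a transcription factor of bipolar cells, had a difference of -0.71 ± 0.13 (adjusted p = 0.0435), lost in 11 of the 12 such fits, all but the one without C57BL/6J 4-week replicate 3 (adjusted p up to 0.2412). It stood at 34.5 to 39.8 CPM in C57BL/6J of 4 weeks, 52.4 to 60.0 CPM in JR5558 of 4 weeks, 44.8 to 51.3 CPM in C57BL/6J of 8 weeks and 40.4 to 44.9 CPM in JR5558 of 8 weeks.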

How the results depend on the processing

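Over 9 kinds of alternative, the 10 genes gave 990 values: 930 kept their side of the threshold, 28 lost a call, 32 gained 1 and 0 called values changed sign. RLE and the filter at 1 CPM changed no call among them. The fit without chromosomes X and Y cannot take a sex effect out of the 10 genes, which lie on other chromosomes. The causes of the changes below were not tested.

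At 4 weeks (1130 genes and 5 of the 10 called), only the groups compared gave 558 genes and 2 of the 10, and the pigment epithelium covariate 237 and 1. At 8 weeks (949 and 3), only the groups compared gave 2183 and 7, the covariate 278 and 1, and DESeq2 5 of the 10. With age in C57BL/6J (79 and 0), no filter gave 445 genes, DESeq2 407 and only the groups compared 22. With age in JR5558 (277 and 0), no filter gave 854 and 2, DESeq2 746 and 2, and only the groups compared 544 and 1. For the difference between ages (17 and 0), no filter gave 96 genes, DESeq2 63 and the fit without chromosomes X and Y 9.

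Leaving out 1 library gave 814 to 1162 genes and 2 to 5 of the 10 at 4 weeks, 538 to 1373 and 3 to 7 at 8 weeks, 16 to 126 and 0 to 0 with age in C57BL/6J, 63 to 987 and 0 to 3 with age in JR5558, and 6 to 38 and 0 to 1 for the difference.

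Among calls of the genes that the naming rule took from the lists, 59 in all, the covariate ended 44 and DESeq2, RLE and both filter settings 0; under the covariate Car12 stood at -0.2147 and Stra6 at -0.0323 at 4 weeks. Without a filter Hes1 at 4 weeks passed (0.48 ± 0.13, adjusted p = 0.008691), and so did Glul at 8 weeks (adjusted p = 0.008509) and Car14 at 4 weeks (0.03322). The share of higher calls with age in C57BL/6J was 46.8%, and 59.1% with only the groups compared. In JR5558 it was 44.8%, and 66.4% without a filter and 57.9% with only the groups compared. For the difference it was 58.8%, and 44.4% without chromosomes X and Y and 41.3% with DESeq2. The order of the 10 genes by level was the same with TPM for 10 of 10.

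The labels number the mice 1 to 3 in each group, but the numbers do not pair them: of 18 same-numbered pairs the correlations of deviations from the group means ran from -0.114 to 0.087, and 0 were over 0.1. With the replicate block 1010, 845, 59, 218 and 12 genes and 4, 3, 0, 0 and 0 of the 10 were called in the order of comparisons above, and the call lost among the 10 was that of Aldh1l1 at 4 weeks (adjusted p = 0.07183).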

Other observations

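Among 12238 genes with at least 5 CPM, those whose log2 CPM followed the mean of the 10 genes most closely over the 12 libraries were Klhl33 (Pearson r = 0.972, Spearman rho = 0.902), Hsd17b11 (0.969 and 0.874), Hmga1b (0.968 and 0.923), Rab37 (0.966 and 0.832) and Nudt9 (0.964 and 0.930). These correlations are a description, since the libraries fall into groups by strain and age, and a gene that differs between the strains follows the mean for that reason. All 5 separate the strains by more than the 10 genes do: at 4 weeks their log2 fold changes ran from 1.12 ± 0.14 for Nudt9 to 2.34 ± 0.20 for Hmga1b. Hsd17b11 and Nudt9 are neighbouring genes in the RefSeq annotation of GRCm38.p6, with no other gene listed between them.

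After each group's mean was taken off, the closest genes were Papss1 (r = 0.975, rho = 0.951), Slc35e4 (0.973 and 0.951), Adra2c (0.971 and 0.972), Nsg2 (0.968 and 0.944) and Pgk1 (0.962 and 0.895). No gene stood in both lists. Pgk1, an enzyme of glycolysis, had a strain log2 fold change of 0.07 ± 0.08 at 4 weeks and 0.16 ± 0.08 at 8 weeks.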
